A study of Mus musculus with 6 samples.

Results

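Ion, metal and organic anion transporters are membrane proteins of the solute carrier families, and the genes described here are the protein-coding genes of the deposited table whose symbols place them in 18 Slc families (Slc4, Slc5, Slc8 to Slc13, Slc20, Slc22, Slc24, Slc26, Slc30, Slc31, Slc34, Slc39, Slc40 and Slc41) or in the Slco family. The rule found 80 of the 12163 listed genes, and 151 protein-coding genes of the GENCODE M21 annotation match the same name pattern. The other annotated genes, all of Slc34 among them, were not analysed here. Slc9a3r1 and Slc9a3r2, which the name pattern also takes in, encode scaffold proteins and not transporters. Their values are given apart, but the counts over all 80 genes and the summed level of sodium-proton exchange include them. The samples were fat grafts taken 7 days after grafting (3 libraries) and fat before grafting (3 libraries), all from mice of the inbred strain C57BL/6, genotype wild type. The labels used here name no fat depot, graft site, sex or age, and they do not say whether a library pools animals.

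Each value is a normalized read count, that is, reads per gene after division by a size factor for that library, and the listed genes summed to 12846005 to 15443409 normalized counts per library. The table lists 12163 genes, and the sources used here do not say how they were chosen. Calls are frequent in it, and the groups did not overlap for 97.6% of the genes tested below. If the genes were listed for a difference between the groups, such shares were partly set in advance. Whether they were was not tested. Log2(value + 1) was fitted with limma over the whole table for genes that reached 10 in 3 or more libraries, and a gene is called at an adjusted p under 0.05. Of the 10854 genes tested, 80.4% were called in either direction, 41.3% as higher and 39.2% as lower in grafts, and the shares below are read against these. Log2 fold changes are grafts over fat before grafting, with their SE, and ± is the SD of 3 libraries. Adipocyte markers of a list of 6 (Adipoq, Plin1, Lep, Cidec, Pparg and Fabp4) summed to 16344, 5113 and 3770 normalized counts in graft replicates 1, 2 and 3, against 171446 to 235507 before grafting, and all 6 were called lower. The 5 listed macrophage markers of 6 (all but Mrc1) summed to 37389 to 45318 in grafts and 5445 to 6475 before grafting, and all 5 were called higher. The 6 neutrophil markers summed to 39749 to 75856 in grafts and 372 to 579 before grafting, and all 6 were called higher. Their part in the results below was not tested.

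Solute carriers move ions and small organic molecules across membranes, mostly by coupling one solute to the gradient of another. In fat they set the acidity, volume, calcium and magnesium of the adipocyte and supply it with vitamins, phosphate and inositol. In macrophages, metal carriers of the phagosome, the endosome and the cell surface take iron, zinc, copper and manganese from engulfed cells and from microbes, store them, or send them back to the circulation. Cellular iron also acts on some of these genes after transcription. Iron regulatory proteins bind a short hairpin, the iron responsive element, which blocks translation when it lies in the 5′ UTR and protects the messenger RNA when it lies in the 3′ UTR.

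The hairpins are shown first because they tie both iron carriers of the cell membrane and endosome, Slc40a1 and Slc11a2, to the ferritin and transferrin receptor genes. Each stretch of 30 bases comes from GENCODE M21 transcripts on GRCm38, with the unpaired C of the stem and the loop of 6 bases in capitals.
Slc40a1, 5′ UTR, chr1:45925464-45925493, minus strand: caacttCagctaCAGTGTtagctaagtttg
Slc11a2, 3′ UTR, chr15:100395152-100395181, minus strand: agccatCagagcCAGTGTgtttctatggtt
Fth1, 5′ UTR, chr19:9982732-9982761, plus strand: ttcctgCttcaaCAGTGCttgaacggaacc
Ftl1, 5′ UTR, chr7:45459778-45459807, minus strand: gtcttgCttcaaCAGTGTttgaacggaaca
Tfrc, 3′ UTR, chr16:32631219-32631248, plus strand: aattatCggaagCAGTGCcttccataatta
The search required an unpaired C, 5 paired bases (G with T allowed) and the loop CAGTGN with a last base other than G, and it found a match in transcripts of 222 of 21877 protein-coding genes (1.01%). Among the transporters Slc40a1 and Slc10a7 held such a match, and Slc11a2 held one when 1 unpaired base was allowed on the 3′ side of the stem, as did 2.93% of genes. The 3′ UTR of Tfrc held further matches that are not shown, at chr16:32631598-32631627, chr16:32631663-32631692 and chr16:32631710-32631739. A match of letters is not a bound site.

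Promoter windows of 300 bases, 250 before to 50 after a RefSeq start site on GRCm38.p6, were matched by symbol for 64 of the 80 genes, in 80 windows. The window of Slc11a1 is shown because this gene had the largest rise of the set, with the letters GAGGAA, the core of sites for the myeloid factor PU.1, in capitals.
Slc11a1, chr1:74374953-74375252, plus strand: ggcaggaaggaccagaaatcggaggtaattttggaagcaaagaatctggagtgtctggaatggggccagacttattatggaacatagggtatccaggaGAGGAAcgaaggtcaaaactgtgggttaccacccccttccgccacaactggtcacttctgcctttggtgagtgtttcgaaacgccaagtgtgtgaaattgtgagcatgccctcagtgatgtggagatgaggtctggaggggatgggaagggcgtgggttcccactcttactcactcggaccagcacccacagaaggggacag
The copper genes Slc31a2 and Slc31a1 lie 62.3 kb apart on chromosome 4, and both rose. Their windows are shown with the letters ACGTG and GCGTG, on either strand, in capitals. These are the core of the hypoxia response element.
Slc31a1, chr4:62360451-62360750, plus strand: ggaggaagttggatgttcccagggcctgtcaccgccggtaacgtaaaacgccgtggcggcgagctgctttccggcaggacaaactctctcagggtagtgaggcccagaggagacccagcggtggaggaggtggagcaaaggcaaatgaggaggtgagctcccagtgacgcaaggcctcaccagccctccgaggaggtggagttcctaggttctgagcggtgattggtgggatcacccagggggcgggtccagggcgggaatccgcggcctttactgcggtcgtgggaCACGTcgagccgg
Slc31a2, chr4:62286179-62286478, plus strand: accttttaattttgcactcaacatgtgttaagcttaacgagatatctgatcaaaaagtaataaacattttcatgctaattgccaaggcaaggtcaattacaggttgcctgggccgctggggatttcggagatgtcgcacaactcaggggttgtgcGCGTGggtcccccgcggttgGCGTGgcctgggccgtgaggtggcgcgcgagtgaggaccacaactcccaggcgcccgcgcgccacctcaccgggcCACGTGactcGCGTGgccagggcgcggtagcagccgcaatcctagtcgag
Slc30a1 is shown because its product is the zinc exporter best known as a target of the metal-sensing factor MTF-1. TGCACNC and TGCGCNC, the core of the metal response element, are in capitals where they occur on either strand.
Slc30a1, chr1:191906531-191906830, plus strand: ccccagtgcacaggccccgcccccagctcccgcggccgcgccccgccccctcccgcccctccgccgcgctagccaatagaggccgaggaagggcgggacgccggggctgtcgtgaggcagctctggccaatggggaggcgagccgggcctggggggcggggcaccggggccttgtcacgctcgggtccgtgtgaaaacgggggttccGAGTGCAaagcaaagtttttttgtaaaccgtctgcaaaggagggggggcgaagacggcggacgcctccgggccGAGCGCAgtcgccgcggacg
The metal response core was in 9 of the 17 windows of metal transporters that rose and in 25.7% of all 32851 windows. The hypoxia core was in 12 of those 17 windows and in 43.8% of all windows, and GAGGAA was in 4 of those 17 and in 28.3% of all. Windows of 1 gene share bases, and these counts are a description only.

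Of the 80 genes, 69 passed the filter on low values and were tested. Among them 37 were called higher and 19 lower in grafts, and 13 were not called. The share called, 56 of 69, was near the 80.4% of all tested genes, and the groups overlapped for 1 of the 69, Slco2a1, when the groups did not overlap for 97.6% of all tested genes. The median log2 fold change was 0.59, against 0.28 over all tested genes, and the range was -4.30 to 4.15. The median over all tested genes depends on the filter: with no filter on low values it was -0.3, and that of the members 0.59. By role, of 25 metal transporter genes, 20 were called higher and 1 lower, while of the 11 tested Slc22 and Slco genes 2 were called higher and 6 lower. These counts depend on the scale. When the median change of 77 ribosomal protein genes was set to 0, the median over all tested genes moved to -0.56, and 16 of the transporter genes were then called higher and 27 lower. On that scale 11 metal transporters were called higher and 5 lower. Without 1 library at a time, 29 to 34 transporter genes were called higher and 15 to 19 lower. In bulk tissue, more cells that carry a gene and more of its RNA in each cell cannot be told apart.

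**Figure D1:**
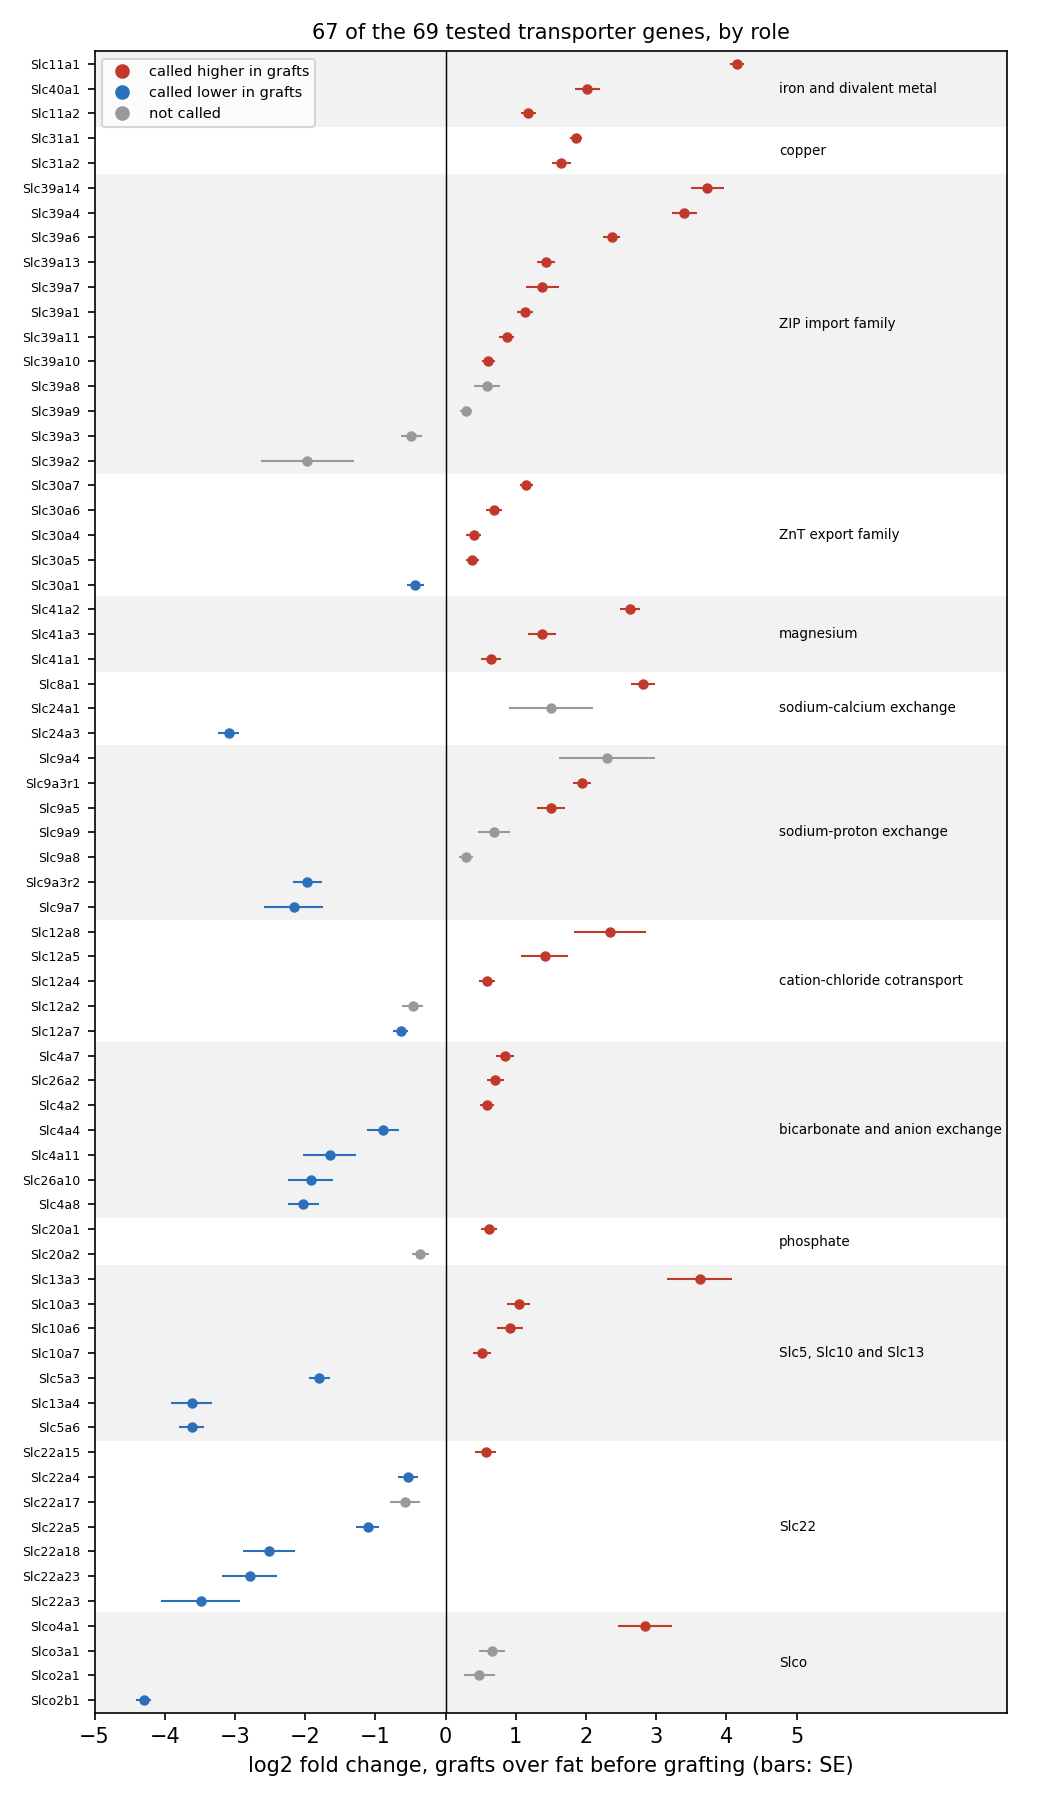
Log2 fold change of grafts over fat before grafting for 67 of the 69 tested transporter genes, with SE bars, grouped by role from top to bottom; red genes were called higher, blue lower, grey not called. The iron, copper, zinc and magnesium genes lie mostly right of 0, and the range runs from Slco2b1 at -4.30 to Slc11a1 at 4.15.

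All 3 iron and divalent metal genes rose. Slc11a1 encodes NRAMP1, which moves divalent metals out of the phagosome of macrophages and neutrophils. It had 6134, 7538 and 6877 normalized counts in grafts, against 394, 396 and 363 before grafting. The groups lay far apart (log2 fold change 4.15, SE 0.10, adjusted p = 5.97e-07 by limma). Slc40a1 encodes ferroportin, the cell's iron exporter, and had 1453, 1364 and 1014 in grafts, against 352, 251 and 339 before grafting. Graft replicate 3 was the lowest graft and still lay well above every library before grafting (log2 fold change 2.02, SE 0.18). Slc11a2, or DMT1, brings iron out of the endosome and had 1449, 1284 and 1488 in grafts, against 615, 687 and 566 before grafting (log2 fold change 1.18, SE 0.11).

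Partner genes of iron divided. Of 19 listed genes of iron storage, uptake and regulation, 8 were called higher, 9 lower and 2 not called. The ferritin genes with the hairpin shown above were among those that rose. Fth1, the heavy chain, had 145331, 170565 and 170440 normalized counts in grafts, against 21639, 25621 and 22287 before grafting, a log2 fold change of 2.81 (SE 0.12). Ftl1, the light chain, rose on the log2 scale by 2.37 (SE 0.10), and Tfrc, the transferrin receptor, by 0.55 (SE 0.14), which was -0.21 on the ribosomal protein scale. Of the iron regulatory protein genes, Aco1 was called lower, at -2.15 (SE 0.12), and Ireb2 was not called (0.25, SE 0.10). On the ribosomal protein scale Ireb2 was called lower, at -0.51 (adjusted p = 0.00744 by limma). Fbxl5, also of the list, was called higher, at 2.71 (SE 0.11). Lcn2, a carrier of iron-binding siderophores, Steap1 and Steap2, of a family of metal reductases, had the largest rises of the list, with log2 fold changes of 8.61, 5.20 and 3.05. The largest falls were those of Hephl1 at -5.84 (SE 0.38), Bmp6 at -3.49 (SE 0.19) and Heph at -3.41 (SE 0.30). Heph and Hephl1 encode copper oxidases that load exported iron onto transferrin, and Bmp6 a growth factor that signals iron load in the liver.

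Both copper genes rose. Slc31a1 encodes CTR1, the high-affinity copper importer, and had 2536, 2460 and 2459 normalized counts in grafts, against 652, 751 and 655 before grafting (log2 fold change 1.86, SE 0.09, adjusted p = 6.64e-06 by limma). Slc31a2 encodes the related protein CTR2 and had 1483, 1556 and 1890 in grafts, against 564, 549 and 454 before grafting (log2 fold change 1.65, SE 0.13). The neighbouring pair thus rose by like amounts. The groups did not overlap for either, as for 97.6% of all tested genes. The 2 listed genes of copper handling, of 9 in the list, rose as well: Atp7a, the copper pump of the Golgi and plasma membrane, by 1.39 on the log2 scale (SE 0.10), and Atox1, the chaperone that feeds it, by 1.10 (SE 0.12), which was 0.34 on the ribosomal protein scale, where it was not called.

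The ZIP family (Slc39), which brings zinc and in part manganese and iron into the cytosol, had 8 of 12 genes called higher and 0 lower, with 4 not called. At an unadjusted p under 0.05, 2 of these 4 were lower and 2 higher by limma. Slc39a14, or ZIP14, takes up zinc, manganese and iron that is not bound to transferrin. It had 6605, 7838 and 9858 normalized counts in grafts, against 451, 833 and 577 before grafting (log2 fold change 3.73, SE 0.23, adjusted p = 1.78e-05 by limma). The libraries of each group differed among themselves, but by far less than the groups did. Slc39a4, or ZIP4, known as the zinc importer of the intestine, had 419, 477 and 375 in grafts, against 42.4, 36.5 and 38.4 before grafting (log2 fold change 3.40, SE 0.18). Slc39a6, or ZIP6, a zinc importer of the cell surface, had 1366, 1655 and 1305 in grafts, against 291, 263 and 276 before grafting (log2 fold change 2.37, SE 0.12). All 3 genes were called under every setting tried.

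Slc39a13, or ZIP13, a zinc carrier of intracellular vesicles needed for connective tissue, had 1278, 1460 and 1699 in grafts, against 522, 590 and 522 before grafting (log2 fold change 1.43, SE 0.13). Slc39a1, or ZIP1, had 4082, 3817 and 3767 in grafts, against 1776, 2008 and 1567 before grafting (log2 fold change 1.13, SE 0.11). Slc39a7, or ZIP7, which releases zinc from the endoplasmic reticulum, is uncertain because 80.7% of its exon bases are shared with Gm20427, a transcript on the same strand. Its values were 135, 119 and 157 in grafts, against 62.1, 39.5 and 56.1 before grafting (log2 fold change 1.38, SE 0.24). Slc39a11 and Slc39a10 rose by 0.87 (SE 0.11) and 0.61 (SE 0.09), and on the ribosomal protein scale Slc39a10 was at -0.15 and none of Slc39a1, Slc39a7, Slc39a10 and Slc39a11 was called. Slc39a8 (0.59, adjusted p = 0.0661), Slc39a9 (0.29, adjusted p = 0.0611), Slc39a3 (-0.49, adjusted p = 0.0629) and Slc39a2 (-1.97, adjusted p = 0.0985) missed the limma threshold. With limma p-values adjusted over the tested genes alone, Slc39a8 and Slc39a9 were called higher (0.0129 and 0.012). Slc39a3 and Slc39a2 were then called lower (0.0123 and 0.0193). On the ribosomal protein scale Slc39a8 and Slc39a9 were at -0.16 and -0.48, and Slc39a9 was called lower (adjusted p = 0.00441). Slc39a3 was called lower under all 4 rescalings tried (adjusted p = 0.000354 to 0.0251) and without replicate 3 before grafting (adjusted p = 0.0444). Slc39a2 was called lower on the ribosomal protein scale (adjusted p = 0.0184), with a pseudocount of 5 (adjusted p = 0.0403) and without graft replicate 2 (adjusted p = 0.0491).

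The ZnT family (Slc30), which moves zinc out of the cytosol, changed less than the ZIP genes with the largest rises: 4 of 5 genes were called higher and 1 lower, within a range of -0.43 to 1.15. Slc30a7, or ZnT7, which carries zinc into the Golgi, had 1455, 1496 and 1602 normalized counts in grafts, against 684, 667 and 699 before grafting (log2 fold change 1.15, SE 0.09, adjusted p = 5.12e-05 by limma). Slc30a6 had 319, 324 and 337 in grafts, against 199, 203 and 205 before grafting, and Slc30a5, whose product pairs with ZnT6 in the secretory pathway, had 1436, 1421 and 1359 in grafts, against 1077, 1034 and 1118 before grafting. Their log2 fold changes were 0.69 (SE 0.12) and 0.38 (SE 0.09), and -0.07 and -0.38 on the ribosomal protein scale, where Slc30a5 was called lower (adjusted p = 0.0181). Slc30a4, a zinc carrier of vesicles, had 946, 985 and 811 in grafts, against 674, 669 and 728 before grafting (log2 fold change 0.40, SE 0.11, and -0.36 on the ribosomal protein scale). Slc30a1, or ZnT1, the zinc exporter of the plasma membrane, was the 1 metal transporter gene called lower, with 505, 624 and 516 in grafts, against 737, 769 and 699 before grafting (log2 fold change -0.43, SE 0.12, adjusted p = 0.0414 by limma). Its call was lost without graft replicate 1 or 3 or any 1 replicate before grafting (adjusted p = 0.0972 to 0.15), and with a variance prior without trend (adjusted p = 0.087). Likewise Slc30a4 was not called without graft replicate 1 or 2 or any 1 replicate before grafting (0.0853 to 0.186), nor Slc30a5 without graft replicate 1 or 2 or replicate 1 or 2 before grafting (0.0501 to 0.0801), and neither was called under any of the other 3 rescalings (adjusted p = 0.0973 to 0.814). Both listed metallothionein genes, whose products buffer zinc, rose: Mt1 had 6290, 4595 and 5829 in grafts, against 1858, 2142 and 2355 before grafting (log2 fold change 1.39, SE 0.14), and Mt2 averaged 68.1 ± 22.3 in grafts and 8.37 ± 8.62 before grafting. On the ribosomal protein scale Mt1 was at 0.63 and Mt2, at 2.86, was not called (adjusted p = 0.12).

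All 3 magnesium carriers of Slc41 rose. Slc41a2 had 1022, 1047 and 865 normalized counts in grafts, against 176, 138 and 157 before grafting (log2 fold change 2.63, SE 0.14, adjusted p = 8.84e-06 by limma). Slc41a3, found in mitochondria, had 365, 364 and 256 in grafts, against 148, 106 and 124 before grafting (log2 fold change 1.37, SE 0.20, and 0.61 on the ribosomal protein scale, where it was not called). Slc41a1, which exchanges magnesium for sodium at the plasma membrane, had 928, 803 and 709 in grafts, against 578, 443 and 539 before grafting. Its log2 fold change of 0.65 (SE 0.14) was -0.12 on the ribosomal protein scale. Its call was lost without graft replicate 2 or replicate 2 or 3 before grafting (adjusted p = 0.0522 to 0.0568). The call was also lost with equal upper quartiles (adjusted p = 0.133 by limma) and equal listed totals (adjusted p = 0.0934). Of 8 listed phosphate and magnesium partner genes, 3 were called higher and 4 lower. Among them Cnnm2, of a family linked to magnesium efflux, fell by 1.96 on the log2 scale, Enpp1, which makes pyrophosphate, had a log2 fold change of 1.61 (SE 0.22), and Fgf23, the phosphate-lowering hormone of bone, had a log2 fold change of 3.63 (SE 0.54) at a low level of 36.2 ± 24.1 in grafts and 1.66 ± 0.587 before grafting.

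**Figure D2:**
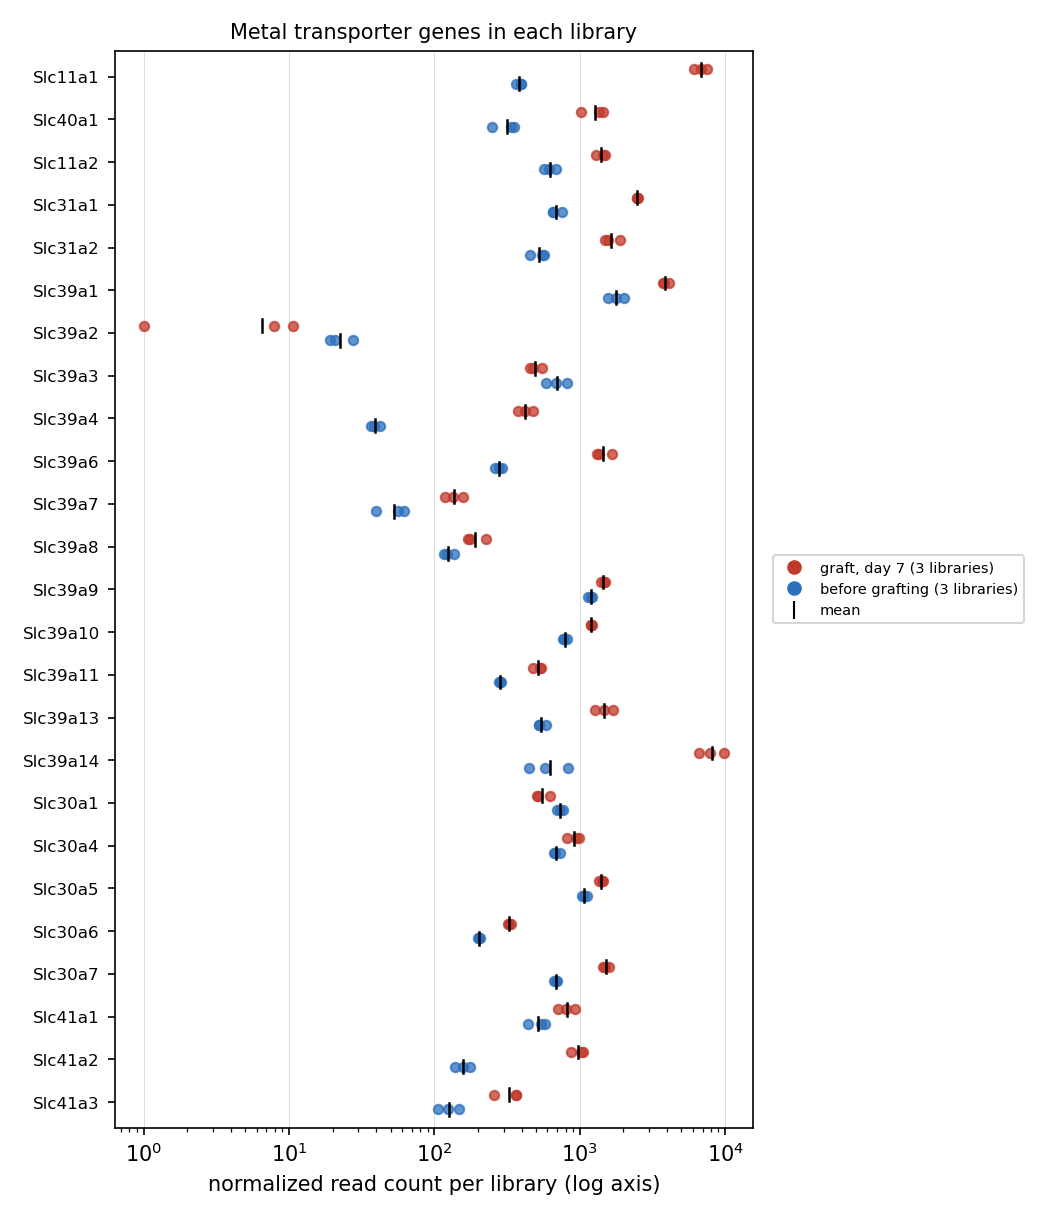
Normalized read count in each library (log axis) of the 25 iron, copper, zinc and magnesium transporter genes, with grafts in red above fat before grafting in blue and a black mark at each mean. The 3 grafts of Slc11a1 sit between 6134 and 7538, all above 363 to 396 before grafting, and those of Slc30a1 at 505 to 624 sit below 699 to 769.

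The sodium-calcium exchangers moved in opposite directions. Slc8a1, or NCX1, which expels calcium from the cell in exchange for sodium, had 562, 671 and 527 normalized counts in grafts, against 94.7, 79.0 and 74.8 before grafting (log2 fold change 2.81, SE 0.17, adjusted p = 1.31e-05 by limma). Slc24a3, or NCKX3, which also uses potassium, had 131, 155 and 150 in grafts, against 1066, 1487 and 1220 before grafting (log2 fold change -3.09, SE 0.15, adjusted p = 5.74e-06). Slc24a1 missed the threshold (1.5, adjusted p = 0.189), with 70.3, 17.5 and 13.8 in grafts, against 8.9, 10.1 and 6.9 before grafting. Graft replicate 1 set its mean, which was 33.9 in all grafts and 15.6 without that library. With limma p-values adjusted over the tested genes alone, Slc24a1 was called higher (0.0369). Of 15 listed genes of sodium-potassium and calcium pumps, 7 were called higher and 6 lower. Atp2a3, a calcium pump of the endoplasmic reticulum, had a log2 fold change of -3.13 (SE 0.20), and Atp2b2, a calcium pump of the plasma membrane, of -3.01 (SE 0.50) at a low level of 2.32 ± 1.17 in grafts and 26.1 ± 12.4 before grafting. The largest rise of the list was that of Fxyd5, a regulator of the sodium-potassium pump, at 2.72 (SE 0.18).

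Of the 7 tested sodium-proton exchangers, 2 were called higher, 2 lower and 3 not. Slc9a5, known mainly from brain, had 162, 134 and 184 in grafts, against 50.3, 56.7 and 59.0 before grafting (log2 fold change 1.5, SE 0.20). Slc9a7, an organelle exchanger of the trans-Golgi, had 21.1, 61.1 and 26.7 in grafts, against 208, 105 and 152 before grafting (log2 fold change -2.16, SE 0.42). The graft mean of Slc9a7 was 36.3, and 23.9 without graft replicate 2. Slc9a8 (0.29), Slc9a9 (0.69) and Slc9a4 (2.30) missed the threshold, and on the ribosomal protein scale Slc9a8 was at -0.48 and Slc9a9 at -0.07. Slc9a4 passed it without replicate 3 before grafting (adjusted p = 0.0457) and with a pseudocount of 5 (adjusted p = 0.026). With limma p-values adjusted over the tested genes alone, Slc9a8, Slc9a9 and Slc9a4 were called higher (0.0243, 0.0208 and 0.0124).

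The scaffold genes moved apart. Slc9a3r1, or NHERF1, which tethers exchangers to the cortical cytoskeleton, had 2022, 2258 and 2373 normalized counts in grafts, against 687, 537 and 514 before grafting (log2 fold change 1.94, SE 0.13, adjusted p = 2.57e-05 by limma). Slc9a3r2, or NHERF2, had 491, 335 and 467 in grafts, against 1374, 2235 and 1515 before grafting (log2 fold change -1.97, SE 0.21). Of 12 tested kinases and scaffolds of exchangers, 4 were called higher and 6 lower. Chp1, a calcium-binding partner of sodium-proton exchangers, had 3366, 3316 and 2704 in grafts, against 7452, 9782 and 8542 before grafting (log2 fold change -1.46, SE 0.13). The largest changes of the list were those of Tesc at -3.09, Ahcyl2 at -2.82 and Wnk2 at 2.50.

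Among 5 tested cation-chloride cotransporters, 3 were called higher and 1 lower. Slc12a7, or KCC4, a potassium-chloride exporter, had 1475, 1178 and 1218 normalized counts in grafts, against 2023, 2092 and 1896 before grafting (log2 fold change -0.64, SE 0.11, adjusted p = 0.00423 by limma). Slc12a4, or KCC1, had 1345, 1204 and 1170 in grafts, against 809, 944 and 723 before grafting (log2 fold change 0.59, SE 0.12, and -0.17 on the ribosomal protein scale). Slc12a4 was not called on that scale or with equal upper quartiles (adjusted p = 0.0855 by limma). Slc12a5, or KCC2, known from neurons, had 153, 75.6 and 134 in grafts, against 53.2, 48.6 and 30.5 before grafting (log2 fold change 1.41, SE 0.34). Its call was lost without graft replicate 1 or 3 or replicate 2 or 3 before grafting (adjusted p = 0.0536 to 0.0992), with equal upper quartiles (adjusted p = 0.055) and on the ribosomal protein scale, where it was at 0.65. Slc12a8 averaged 39.6 ± 16.4 in grafts and 7.59 ± 5.38 before grafting (log2 fold change 2.34, SE 0.51), and without graft replicate 2 or replicate 1 or 2 before grafting it was not called (adjusted p = 0.0543 to 0.0597), nor on the ribosomal protein scale, where it was at 1.60. Its mean before grafting was 4.5 without replicate 3. Slc12a2, or NKCC1, which brings sodium, potassium and chloride into the cell, missed the threshold (-0.47, adjusted p = 0.0807) and passed it without graft replicate 1 (adjusted p = 0.00829) and under all 4 rescalings tried (adjusted p = 0.000426 to 0.0424).

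The bicarbonate and anion exchangers divided into 3 genes called higher and 4 called lower, with a median log2 fold change of -0.89. The sodium-bicarbonate cotransporter gene Slc4a8 had 101, 153 and 108 normalized counts in grafts, against 594, 398 and 491 before grafting (log2 fold change -2.03, SE 0.22, adjusted p = 0.000274 by limma), and Slc4a4, or NBCe1, had 266, 283 and 177 in grafts, against 453, 536 and 349 before grafting (log2 fold change -0.89, SE 0.23). Slc4a7, or NBCn1, which also imports bicarbonate with sodium, had 1325, 1479 and 1194 in grafts, against 831, 635 and 758 before grafting (log2 fold change 0.85, SE 0.13, and 0.09 on the ribosomal protein scale, where it was not called). Within the sodium-bicarbonate group, 1 gene thus rose while 2 fell. Slc26a2, a sulfate carrier needed for cartilage matrix, had 941, 1129 and 1013 in grafts, against 710, 565 and 613 before grafting (log2 fold change 0.71, SE 0.12, and -0.05 on the ribosomal protein scale). Slc4a2, or AE2, a chloride-bicarbonate exchanger, rose by 0.59 (SE 0.10), and was at -0.17 on that scale. Slc4a11 averaged 42.9 ± 24.2 in grafts and 123.9 ± 8.71 before grafting (log2 fold change -1.65, SE 0.38), and Slc26a10 averaged 21.7 ± 4.38 in grafts and 87.1 ± 30.1 before grafting (log2 fold change -1.92, SE 0.32). The call of Slc4a11 was lost without any 1 replicate before grafting (adjusted p = 0.0654 to 0.093), and that of Slc4a4 without graft replicate 3 or replicate 1 or 2 before grafting (adjusted p = 0.0799 to 0.121). Genes of the carbonic anhydrase family, which includes the enzymes that make the bicarbonate, also divided: of 12 tested, 6 were called higher and 6 lower. Car3, abundant in fat and muscle, had 4666, 304 and 1052 in grafts, against 171594, 218341 and 197622 before grafting (log2 fold change -7.41, SE 0.83). Car5b, a mitochondrial form, had a log2 fold change of -4.98 (SE 0.20), and Car12, a form of the cell surface, of 4.5 (SE 0.29).

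For phosphate, Slc20a1, or PiT-1, had 1299, 1253 and 1246 normalized counts in grafts, against 836, 731 and 921 before grafting (log2 fold change 0.62, SE 0.11, adjusted p = 0.0045 by limma, and -0.15 on the ribosomal protein scale). Slc20a1 was not called on that scale or with equal upper quartiles (adjusted p = 0.0659 by limma). Its paralog Slc20a2, or PiT-2, had 549, 617 and 630 in grafts, against 865, 773 and 678 before grafting, and missed the threshold (-0.36, adjusted p = 0.104 by limma). It was called lower under all 4 rescalings tried (adjusted p = 0.000229 to 0.0414). Both carry phosphate into the cell with sodium. Neither overlapped between groups, as was so for 97.6% of all tested genes.

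Of 7 tested genes of Slc5, Slc10 and Slc13, 4 were called higher and 3 lower, and the changes were wide. Slc5a6, or SMVT, which takes up biotin, pantothenate and lipoate, had 80.3, 76.6 and 83.1 normalized counts in grafts, against 817, 1282 and 946 before grafting (log2 fold change -3.62, SE 0.18, adjusted p = 6.21e-06 by limma). The grafts lay close together, far below any library before grafting. Slc5a3, or SMIT1, which takes up the osmolyte inositol, had 422, 345 and 312 in grafts, against 1212, 1456 and 1104 before grafting (log2 fold change -1.80, SE 0.15). Slc13a4, a sulfate carrier, had 8.0, 12.6 and 8.9 in grafts, against 108, 142 and 144 before grafting (log2 fold change -3.62, SE 0.29).

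Slc13a3, or NaDC3, which carries succinate and related dicarboxylates into the cell, moved the other way. It had 2091, 495 and 1004 normalized counts in grafts, against 73.0, 94.2 and 78.7 before grafting (log2 fold change 3.62, SE 0.46, adjusted p = 0.00094 by limma). Grafts differed widely, and the graft mean of 1197 was 749 without graft replicate 1. Slc10a3, an orphan member of the bile acid carrier family, had 356, 363 and 270 in grafts, against 157, 162 and 155 before grafting (log2 fold change 1.04, SE 0.16, and 0.28 on the ribosomal protein scale, where it was not called). Slc10a6, which takes up sulfated steroids, had 340, 237 and 337 in grafts, against 140, 158 and 181 before grafting (log2 fold change 0.92, SE 0.19). It was at 0.16 on the ribosomal protein scale, where it was not called, and it was also not called with equal upper quartiles (adjusted p = 0.0611) or without graft replicate 3 or replicate 1 before grafting (adjusted p = 0.0536 and 0.0533). Slc10a7, which held the hairpin letters in a transcript, rose by 0.52 (SE 0.13), was at -0.24 on the ribosomal protein scale, and was not called without any 1 library other than graft replicate 3 (adjusted p = 0.057 to 0.0839). Nor was Slc10a7 called under any of the other rescalings (adjusted p = 0.0943 to 0.32 by limma) or with a replicate block (adjusted p = 0.0573).

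Organic cation and anion carriers of Slc22 mostly fell: of 7 tested genes, 5 were called lower, against 39.2% of all tested genes, and 1 higher. Slc22a3, or OCT3, which takes up catecholamines and other organic cations, had 382, 147 and 63.3 normalized counts in grafts, against 1454, 1846 and 1933 before grafting (log2 fold change -3.49, SE 0.56, adjusted p = 0.0032 by limma). The grafts differed widely, with replicate 1 highest, and the log2 fold change was -4.15 without that library and -2.86 without graft replicate 3. The graft mean was 197.5, and 105 without replicate 1. Slc22a23, an orphan carrier, had 197, 137 and 92.0 in grafts, against 530, 1364 and 1160 before grafting (log2 fold change -2.79, SE 0.39). Slc22a18 averaged 14.8 ± 6.25 in grafts and 84.6 ± 13.7 before grafting (log2 fold change -2.51, SE 0.37).

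The carnitine importer gene Slc22a5, or OCTN2, had 352, 289 and 249 normalized counts in grafts, against 597, 731 and 586 before grafting (log2 fold change -1.11, SE 0.16, adjusted p = 0.00152 by limma). Its neighbour Slc22a4, or OCTN1, 91.5 kb away on chromosome 11 and a carrier of ergothioneine, had 350, 353 and 275 in grafts, against 462, 513 and 445 before grafting (log2 fold change -0.54, SE 0.14). The pair fell together, but the call of Slc22a4 was lost without any 1 library other than graft replicate 1 (adjusted p = 0.0534 to 0.12). Slc22a15 rose by 0.57 (SE 0.15), was at -0.19 on the ribosomal protein scale and was not called without any 1 library other than graft replicate 1 (adjusted p = 0.0747 to 0.163). Nor was Slc22a15 called under any of the other rescalings (adjusted p = 0.106 to 0.364 by limma) or with a replicate block (adjusted p = 0.125). Slc22a17, a reported receptor for the lipocalin Lcn2, missed the threshold (-0.58, adjusted p = 0.132) but was called lower with equal upper quartiles (adjusted p = 0.0339) and on the ribosomal protein scale (adjusted p = 0.00194), with 198, 170 and 258 in grafts, against 281, 382 and 268 before grafting.

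Of the Slco genes, Slco2b1 had the largest fall of all tested transporters. Its product takes up sulfated steroids and many drugs, and it had 169, 164 and 165 normalized counts in grafts, against 3154, 3664 and 3046 before grafting (log2 fold change -4.30, SE 0.11, adjusted p = 5.97e-07 by limma). The 3 grafts lay close together, far below every library before grafting. Slco4a1, which carries thyroid hormone and prostaglandins, had 112, 215 and 223 in grafts, against 19.7, 17.2 and 38.4 before grafting (log2 fold change 2.84, SE 0.39). Slco2a1, the prostaglandin carrier, had 696, 454 and 428 in grafts, against 384, 291 and 445 before grafting, so the groups overlapped (0.48, adjusted p = 0.333). Slco3a1 had 610, 850 and 799 in grafts, against 581, 482 and 376 before grafting (0.66, adjusted p = 0.0523), and it passed the threshold without graft replicate 1 or replicate 1 before grafting (adjusted p = 0.0217 and 0.0345), with a pseudocount of 5 (adjusted p = 0.0472) and with no filter (adjusted p = 0.0444). On the ribosomal protein scale Slco2a1 and Slco3a1 were at -0.28 and -0.10. Of 9 listed multidrug and organic anion efflux pumps, 4 were called higher and 5 lower, with Abcc3 at 2.55 (SE 0.15), Abcc2 at -2.44 (SE 0.64) and Abcc1 at 1.87 (SE 0.15) in the lead.

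**Figure D3:**
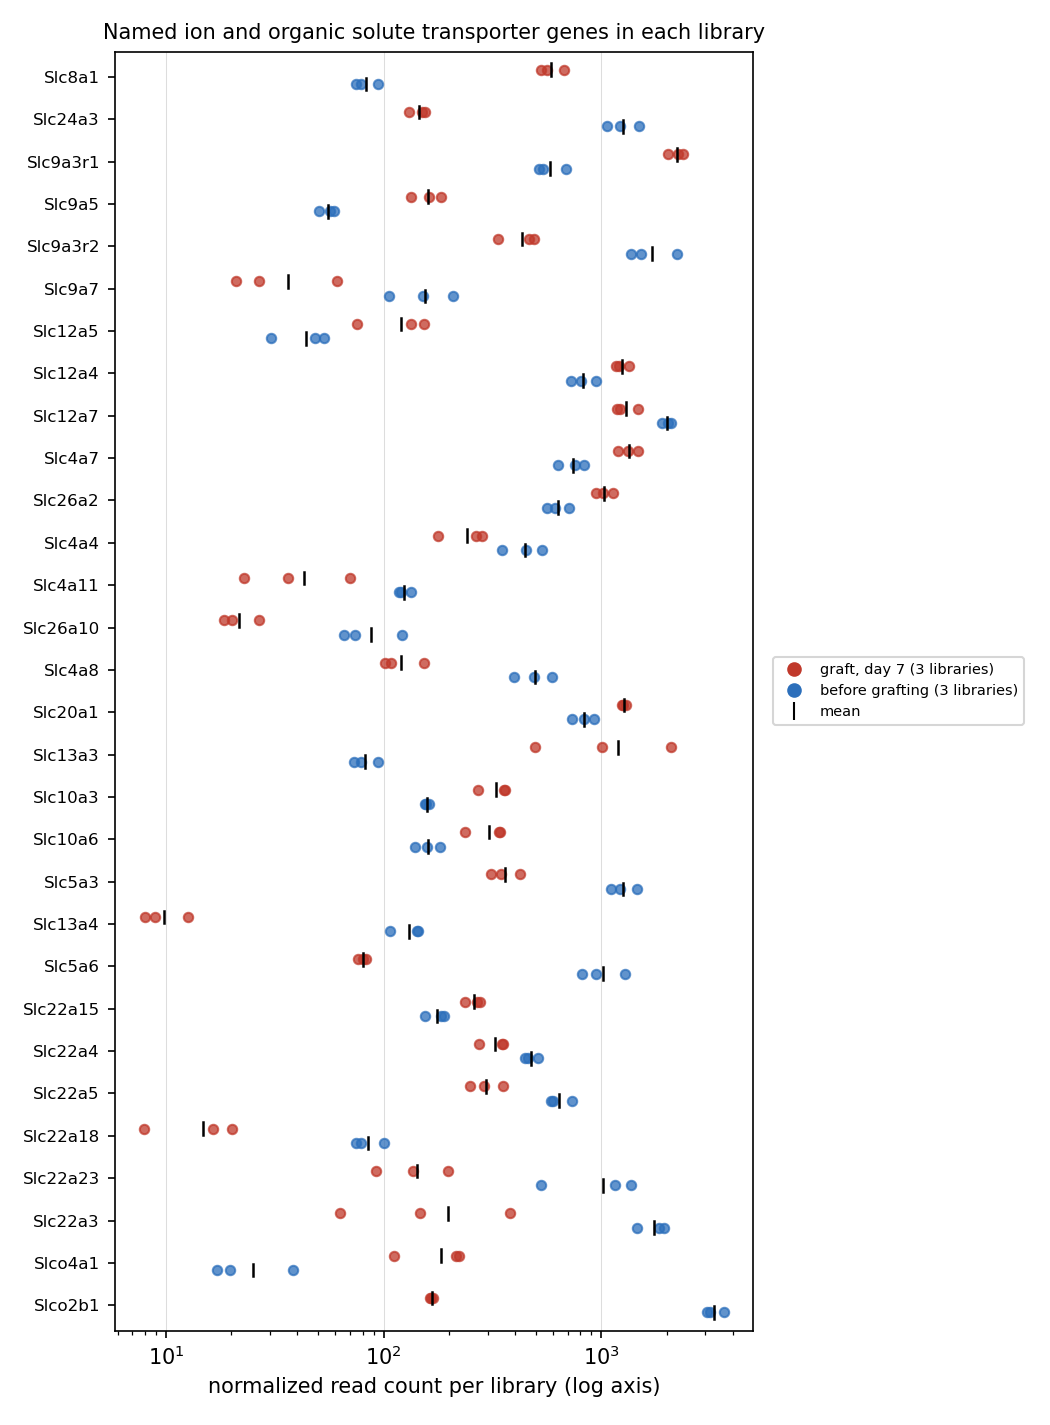
Normalized read count in each library (log axis) of the named ion and organic solute transporter genes and of both scaffold genes, with grafts in red above fat before grafting in blue and a black mark at each mean. The graft values of Slc13a3 and Slc22a3 are wide, at 495 to 2091 and 63.3 to 382, while those of Slco2b1 lie at 164 to 169.

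Levels per kilobase of the deposited gene length show which genes led each role. That length differs from the exon bases of GENCODE M21 by over 2% for 3 of the genes: Slc8a1 has 2934 against 18807, and Slc12a2 and Slc9a3r2 also have fewer in the table. No order is therefore read between the sodium-calcium exchangers, and the sums of the roles of these genes are lower on the annotated length. Summed over the 3 iron genes, the level was 2212 ± 172 normalized counts per kilobase in grafts and 237 ± 10.4 before grafting, and Slc11a1 made up 83.6% of it in grafts and 43.8% before grafting. The ZIP genes summed to 3903 ± 109 in grafts and 1553 ± 139 before grafting, with Slc39a1 at 42.1% and 48.6%, so ZIP1 led the family in both groups. Slc39a14 was at 768 ± 156 per kilobase in grafts and 58.8 ± 18.4 before grafting, and ranked 5 in grafts and 40 before grafting among the 80 genes. The ZnT genes summed to 707 ± 24.02 in grafts and 541 ± 7.06 before grafting. Magnesium carriers were led by Slc41a2 in grafts (39.6%) and by Slc41a1 before grafting (59.3%). The Slc22 genes summed to 368 ± 68.8 in grafts and 1073 ± 158 before grafting, led by Slc22a4 in grafts and Slc22a3 before grafting. The Slco genes summed to 197 ± 16.9 in grafts and 644 ± 50.6 before grafting, with Slco2b1 at 85.7% of the sum before grafting and Slco3a1 in the lead in grafts.

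**Figure D4:**
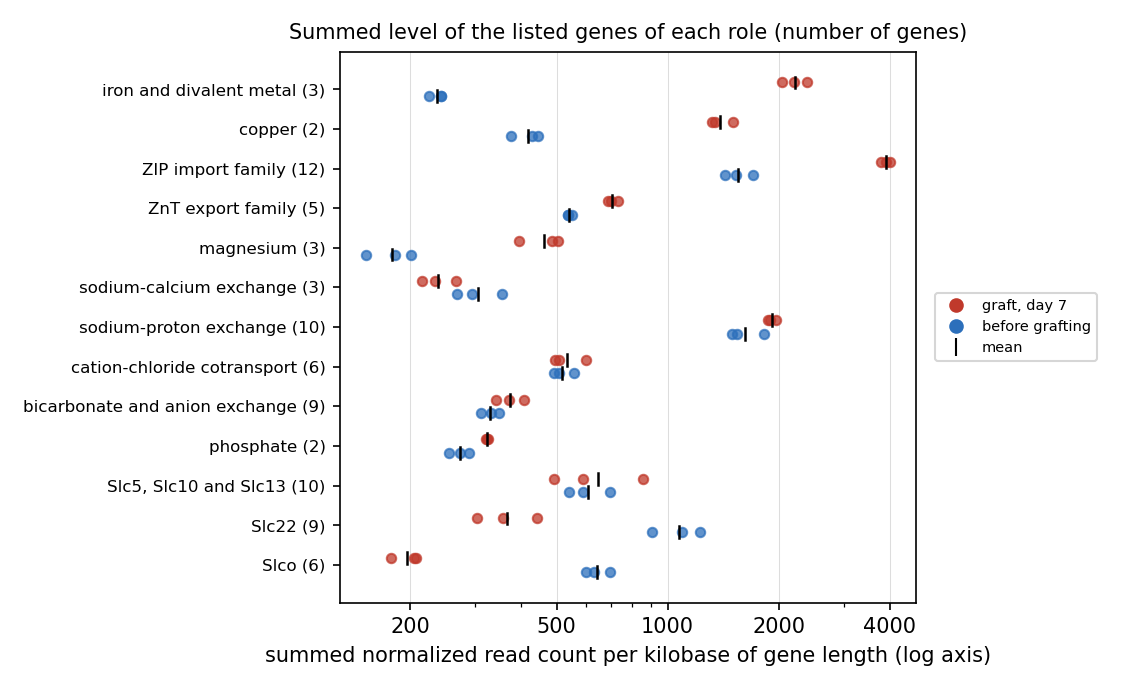
Summed normalized read count per kilobase of gene length (log axis) of the listed genes of each role, in each library, with grafts in red above fat before grafting in blue and a black mark at each mean. The sodium-proton sum includes both scaffold genes, so its difference between groups is not one of exchangers alone. Slc9a3r1 made up 60.2% of that sum in grafts, and Slc9a3r2 46.7% of it before grafting. The iron genes stand at 2045 to 2388 in grafts and 225 to 243 before grafting, while Slc22 and Slco are lower in every graft; the groups overlap for cation-chloride cotransporters, for bicarbonate and anion exchangers and for Slc5, Slc10 and Slc13, and the sodium-calcium sums rest on the short deposited length of Slc8a1.

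The most abundant of the 80 genes per kilobase in grafts was Slc11a1, at 1849 ± 190 normalized counts per kilobase, followed by Slc39a1 at 1645 ± 71.5. Before grafting Slc39a1 was at 754.5 ± 93.3 and Slco2b1 at 552 ± 55.4, and the scaffold gene Slc9a3r2 was at 757 ± 205 on the shorter deposited length. Slc11a1 ranked 29 before grafting, at 104 ± 5.04.

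The other 11 genes did not pass the filter on low values and were not tested. Slc26a9, Slc22a20 and Slc5a9 were at 0 in every library before grafting, with 7.0, 14.5 and 16.8, 4.0, 8.7 and 11.9, and 1.0, 11.6 and 4.9 normalized counts in graft replicates 1, 2 and 3. With a floor of 3 reads per library, they were at least 4.29-fold, 2.75-fold and 1.97-fold higher in grafts. Slc22a14 and Slc10a5 were at 0 in every graft, and with the same floor they were at least 2.56-fold and 1.79-fold lower. The iodide carrier gene Slc5a5 had 1 read in all grafts and 24 before grafting, a ratio of 24.2 (95% counting interval 3.94 to 993), and Slco1c1, a thyroid hormone carrier of the blood-brain barrier, had 2 and 35, a ratio of 17.6 (4.53 to 151). For Slc9a3, the exchanger of kidney and intestine, the reads were 2 and 28, and for Slc12a3, the chloride carrier of the kidney tubule, 3 and 22. Slc26a8 averaged 3.60 ± 3.41 in grafts and 13.3 ± 4.38 before grafting, and Slco4c1 averaged 13.9 ± 6.95 in grafts and 2.30 ± 2.05 before grafting. Reads here are the values divided by the step of their library, and those of graft replicates 1 and 3 did not meet the criterion set for a count test, so these ratios and floors assume that the steps are single reads. Intervals and floors cover counting error only.

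Other tissues were checked because several of these genes are known from kidney, epithelium or neurons. None of the 6 male tract, 5 skeletal muscle and 5 red cell markers was listed. This cannot show that these tissues were absent, because how the listed genes were chosen is not known. The endothelial markers Pecam1, Cdh5 and Emcn were not listed either. Of 6 epithelial markers 1 was listed, Cdh1 at 51.2 to 89.0 normalized counts in grafts and 29.5 to 38.5 before grafting. Of 5 kidney markers, 2 were listed. Aqp2, a water channel of the collecting duct, had 56.2, 116 and 150 in grafts, against 2.0, 5.1 and 3.9 before grafting, and was called higher (log2 fold change 4.49, SE 0.47). Nphs1, of the glomerular podocyte, was at 0 in every graft and at 3.0 to 20.7 before grafting. The 4 listed mesothelial markers of 5 summed to 85.2 to 160 in grafts and 44.4 to 88.2 before grafting, with Wt1 and Upk3b at 0 in every library before grafting. They divided: of 2 tested, Wt1 was called higher and Lrrn4 lower. Lrrn4 had 12.1, 1.9 and 1.0 in grafts, against 41.4, 83.1 and 77.7 before grafting (log2 fold change -3.95, SE 0.70). The 5 Schwann cell markers were all lower, with sums of 1708 to 2780 in grafts and 4001 to 4470 before grafting. T cell and B cell markers, 5 of 5 in each list, were called lower, with sums of 160 to 443 and 138 to 378 in grafts, against 2473 to 4496 and 4826 to 10166 before grafting. Of 5 fibroblast and progenitor markers 4 were listed, with Col1a1 and Pdgfra called higher, Dpt called lower and Lum not called. Their sum was 289116 to 431268 in grafts and 32338 to 43036 before grafting, of which Col1a1 made up 280633 to 418857 in grafts and 20058 to 29012 before grafting. Smooth muscle and pericyte markers, 2 called higher and 2 lower of the 4 listed of 5, summed to 10592 to 12986 in grafts and 10002 to 10595 before grafting. The 2 listed endothelial markers of 5 were called lower, at 1822 to 2164 in grafts and 4589 to 5556 before grafting. Their part in the transporter values was not tested.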

How the data were processed

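Trizol RNA of 6 fat samples, 3 at 7 days after grafting and 3 before it, was made into Illumina libraries, per the labels' protocols. The deposited signal of each gene is a normalized count. It was taken as reads divided by 1 size factor per library, because 100% of the values in each library are multiples of 1 step (within 0.01 steps), but in graft replicates 1 and 3 the steps did not meet the criterion for recovered reads. The authors' group means were left out. Levels per kilobase rest on the lengths in the deposited table. The submitters' processing notes name Bowtie 0.12.2, HISAT2 2.0.5, mm8 and mm9, but 79 of the 80 genes lie within 1000 bp of their GENCODE M21 positions on GRCm38. The sources used here do not give counter, strand use, normalization tool or gene filter, so overlapping genes may not be told apart: 14 of the 80 share over 5% of their exon bases with another gene. The labels do not say that libraries come from separate animals, so p-values measure the spread between these samples, which may be technical.

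Limma 3.58.1 in R 4.3.3 was fitted to log2(value + 1) with group as the only term (moderated variances with a trend, robust, two-sided). Limma p-values were adjusted (Benjamini-Hochberg) over the 55450 genes of the annotation, with unlisted genes counted as unchanged. The fit was checked on simulated data with far fewer changed genes than were called here. That check adjusted over the tested genes alone, so it does not cover the adjustment used here. Tables used Python 3.11.15, numpy 2.4.6, pandas 2.3.3 and scipy 1.17.1, and figures matplotlib 3.10.9. The depth of the full libraries is unknown. Genes were named by a rule: the 6 called members per role with the largest change and a mean of at least 50, the scaffold genes, and the 3 called genes per partner list with the largest change. Other members, and Fth1, Ftl1, Tfrc, Aco1, Ireb2, Fbxl5, Steap2, Bmp6, Heph, Fxyd5 and Chp1 among partners, were named after their values were seen. Results for 3 genes are not reported here. Members and lists were chosen with earlier results of these data known. Alternatives were other pseudocounts, filters, scalings, variance priors, adjustment, a replicate block and leaving out each library.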

Additional observations from a re-analysis of the deposited data

How the results depend on the processing

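Count tests with edgeR and DESeq2 had been listed as alternatives and were not run, because the steps of graft replicates 1 and 3 did not meet the criterion for recovered reads. Of 37 genes called higher and 19 called lower, 16 and 15 kept their call in all 17 alternatives, and 26 and 15 in all but the ribosomal protein scale. Over the tested members the median was 0.59 on the log2 scale and moved to 0.48 after rescaling by median ratios, 0.36 with equal upper quartiles and 0.47 with equal listed totals, with 33, 27 and 31 genes called higher and 22, 23 and 22 lower. With ribosomal protein genes at no change it was -0.16, with 16 genes called higher. Of the members called in either direction, 66.1% were higher, and 37.2% on that scale. Of all genes called in either direction, these shares were 51.3% and 24.7%. With equal upper quartiles the shares of called genes that were higher were 54.0% for members and 39.5% for all genes. On the ribosomal protein scale 18 members reversed, among them Slc10a7 (-0.24), Slc12a4 (-0.17), Slc20a1 (-0.15), Slc22a15 (-0.19), Slc26a2 (-0.05), Slc30a4 (-0.36), Slc30a5 (-0.38), Slc30a6 (-0.07), Slc39a10 (-0.15), Slc39a8 (-0.16), Slc39a9 (-0.48), Slc41a1 (-0.12), Slc4a2 (-0.17), Slc9a8 (-0.48), Slc9a9 (-0.07), Slco2a1 (-0.28) and Slco3a1 (-0.10). The cause was not tested. Leaving out 1 library gave 29 to 34 calls higher, 15 to 19 lower and medians of 0.55 to 0.62. The median over all tested genes then ran from -0.32 to 0.39. Same-numbered libraries did not deviate together (correlations -0.157, -0.127 and 0.041). With 3 libraries per group this cannot show whether they share an animal, and the labels do not say. With the replicate block 32 genes were called higher and 17 lower. Adjusting over the tested genes alone gave 44 calls higher and 24 lower, with 12 members called that the main test had not called. Of 36 partner genes called higher, 16 were not called on the ribosomal protein scale. Pseudocounts of 0.5 and 5, no filter and a filter at 30 left the direction of every tested member as it was.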
